A study of Mus musculus with 30 samples.

Results

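The chromatin accessibility peaks around 4 pluripotency genes, Pou5f1 (Oct4), Sox2, Nanog and Fgf5, were followed from mouse epiblast stem cells (EpiSCs) to definitive endoderm (DE) made from them. A peak was taken when its start lay within 500 kb of chr17:35506947 for Pou5f1, chr3:34653984 for Sox2, chr6:122707489 for Nanog or chr5:98254012 for Fgf5 on mm10. This gave 403 of the 158917 peaks in the table, of which 185 lay around Pou5f1, 74 around Sox2, 93 around Nanog and 51 around Fgf5. The Nanog position is the annotated start of the gene. The other 3 positions are the starts of peaks whose change was already known from an earlier analysis of these data, so the values of those 3 peaks are given as a description. Distances in the text run from the annotated start of the gene, with negative values upstream. All 4 genes lie on the forward strand.

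The main comparison used ATAC-seq of 4 EpiSC and 4 DE libraries of the inbred strain B6. EpiSCs grew on feeder cells in N2B27-based medium with Fgf2, ActivinA and the Wnt inhibitor NVP-TNKS656, at passages 5 to 10. DE was induced from such cells with CHIR99201 and ActivinA for 16 h and then ActivinA and LDN193189 for 24 h, within a stated 46 h, and was enriched for CXCR4+ cells on magnetic beads. EpiSCs were lifted with collagenase to leave feeder cells behind, whereas DE cells were lifted with accutase. Nuclei of either of 2 cell numbers were transposed, and the labels do not tie the number to a library. The 8 ATAC-seq libraries held 3751526 to 9311622 counts in peaks. RNA-seq of 5 EpiSC and 4 DE libraries of B6 served as a separate readout, with 22829536 to 66563933 counts each. ATAC-seq of 2 EpiSC libraries of PWK, an inbred strain of wild origin, and 1 of DBA served as another genetic background. The labels call the samples biological replicates without saying whether they came from separate lines or cultures, so p-values measure only the spread between these samples.

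Pou5f1, Sox2 and Nanog are transcription factors that bind together at many enhancers and hold cells in the pluripotent state, and their expression is lost as the germ layers form. Fgf5, a secreted growth factor, marks the primed state of the late epiblast, in which EpiSCs are held. An ATAC-seq peak marks DNA that the transposase can reach, which is typical of promoters and of enhancers bound by transcription factors. Pou5f1 is known to be driven by enhancers just upstream of its promoter, Sox2 by a distal control region downstream of the gene, Nanog by elements on both sides, and Fgf5 by a series of downstream enhancers.

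The 250 bases upstream of the annotated start are shown for the 3 genes whose upstream window overlapped a peak of the set, because these are the promoters whose accessibility is compared below. They are RefSeq sequences of GRCm38.p6, forward strand, at chr6:122707239-122707488 for Nanog, chr3:34649745-34649994 for Sox2 and chr5:98253934-98254183 for Fgf5. Capitals mark matches to the motifs searched, and Sox2 had none.
Nanog: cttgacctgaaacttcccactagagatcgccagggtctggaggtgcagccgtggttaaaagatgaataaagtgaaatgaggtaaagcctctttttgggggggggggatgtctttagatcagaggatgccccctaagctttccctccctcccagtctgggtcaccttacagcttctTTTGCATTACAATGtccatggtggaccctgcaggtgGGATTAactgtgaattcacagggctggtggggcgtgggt
Sox2: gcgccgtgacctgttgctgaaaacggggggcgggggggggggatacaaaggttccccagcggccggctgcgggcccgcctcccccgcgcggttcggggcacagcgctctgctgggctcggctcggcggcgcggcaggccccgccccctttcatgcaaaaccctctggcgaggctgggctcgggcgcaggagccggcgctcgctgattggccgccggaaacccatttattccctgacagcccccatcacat
Fgf5: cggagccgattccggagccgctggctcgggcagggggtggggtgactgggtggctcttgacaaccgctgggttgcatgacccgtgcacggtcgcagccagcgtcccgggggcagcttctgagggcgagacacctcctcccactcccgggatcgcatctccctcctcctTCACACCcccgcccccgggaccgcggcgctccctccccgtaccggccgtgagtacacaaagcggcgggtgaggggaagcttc

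The Nanog window held the composite of a POU site and a SOX site, TTTGCATTACAATG, from 75 to 62 bases before the start, inside the peak at the start. With any base allowed between both sites, 2 of 32851 promoter windows of the same length held it (0.00609%), and both are entries of Nanog. The composite was added to the search after this sequence had been seen. The Nanog window also held the OTX and GSC motif GGATTA, as did 6.25% of promoters. The Fgf5 window held the T-box motif GGTGTGA on the reverse strand, as did 3.33% of promoters. The other motifs, searched on both strands, were the POU octamer ATGCAAAT (1.6% of promoters), SOX AACAATG (3.29%), FOX TGTTTAC (3.17%) and TGTTTGC (4.3%), AGATAA for GATA factors (9.99%) and a CTCF core motif (2.07%), and none of the 4 windows held them. No peak of the set overlapped the Pou5f1 window at chr17:35505782-35506031, which held no match either. A match says only that the letters are present.

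Of the 403 peaks, 331 had enough counts to be tested and 72 did not. In DE, 73 peaks were more accessible and 105 less accessible than in EpiSCs, and 153 were not called, so 178 changed in either direction beside 57.6% of all tested peaks (edgeR quasi-likelihood test, adjusted p under 0.05 over all 113870 tested peaks of the table). The share that rose was 22.1%, beside 32.6% of all tested peaks, and the share that fell was 31.7%, beside 25.0%. The median log2 change was -0.29 around the 4 genes and -0.01 over all tested peaks. In 49.2% of the tested members the 4 EpiSC and 4 DE values did not overlap, beside 53.8% of all tested peaks. Of the 178 called members, 143 changed at least 2-fold and 53 at least 8-fold. The shares of all tested peaks at these limits were not computed, so whether such sizes are usual cannot be said. Without the 3 position peaks the counts were 71 higher and 104 lower of 328. At the edges of the window, the last peaks inside had log2 changes of -0.68 upstream of Pou5f1, -2.07 and 2.72 upstream and downstream of Sox2, -0.79 and 0.11 for Nanog, and 1.96 and -2.0 for Fgf5. The nearest peaks outside had 0.39 and 1.10 upstream and downstream of Pou5f1, -1.90 upstream of Sox2, -3.84 upstream of Nanog and 0.30 downstream of Fgf5. The other 4 peaks at the edges were not tested. In these bulk samples, fewer cells with an open site and less opening per cell cannot be told apart.

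The counts are given by locus. Around Pou5f1, which lies in the gene-dense major histocompatibility complex, 21 of 159 tested peaks rose (13.2%) and 43 fell (27.0%). Scaling by total library size, which moved the median of all peaks to -0.22, turned that split to 18 against 62. Around Sox2, which sits in a gene-poor stretch under the long non-coding Sox2ot, 20 of 53 rose (37.7%) and 21 fell (39.6%). Around Nanog, 19 of 81 rose (23.5%) and 30 fell (37%). Around Fgf5, 13 of 38 rose (34.2%) and 11 fell (28.9%). Peaks of both directions occurred along each window, but neighbours more often shared a direction. Of 174 pairs of neighbouring called peaks, 103 had the same direction and 71 opposite directions. Directions were opposite in 18 of the 53 pairs that lay within 5 kb of each other. Whether these counts differ from those of a random order was not tested.

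**Figure D1:**
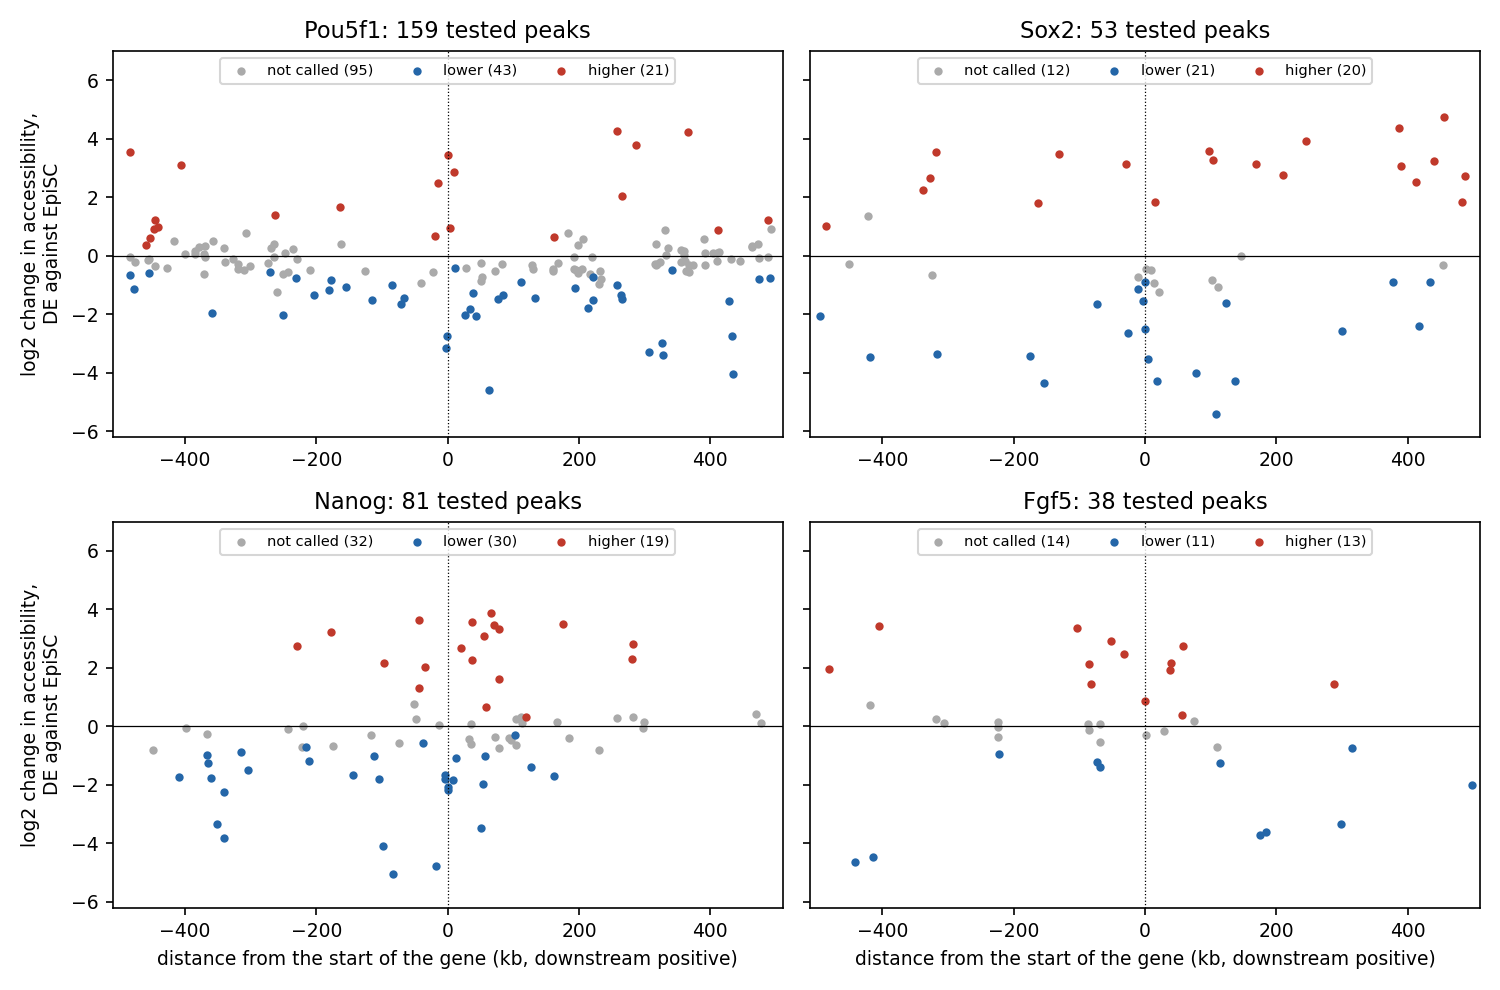
Log2 change in accessibility, DE against EpiSC, of each tested peak against its distance from the start of the gene in kb, one panel per locus, with peaks that rose in red, that fell in blue and that were not called in grey. Peaks of both directions occur over the whole window, and none of the 5 tested peaks within 10 kb of Nanog lies above 0.

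Distance was read against the 4 positions. Within 10 kb, 12 of 19 tested peaks fell, 4 rose and 3 were not called, and the median log2 change was -1.54. Without the 3 position peaks, 11 of 16 fell and 2 rose. Between 10 and 50 kb, 13 of 35 rose and 10 fell. From 50 to 100 kb the counts were 14 higher and 15 lower of 46, from 100 to 200 kb 9 and 21 of 54, and from 200 to 500 kb 33 and 47 of 177. With the position peaks included, the share that fell was 63.2% within 10 kb and between 26.6% and 38.9% in each wider band. Over all tested peaks 25.0% fell. The 3 position peaks lie within 10 kb by the rule, so the 63.2% is a description.

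By locus and without the position peaks, all 5 tested peaks within 10 kb of Nanog fell, as did 3 of 5 at Sox2, where none rose. At Pou5f1, 3 fell and 2 rose. At Fgf5, the 1 tested peak was not called, and of 5 within 50 kb none fell, 3 rose and 2 were not called. At Nanog the counts were also taken by side. Upstream, 22 of 40 fell and 6 rose, whereas downstream 8 of 41 fell and 13 rose. Over all tested peaks 25.0% fell and 32.6% rose. Whether loci or sides differ from each other was not tested.

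**Figure D2:**
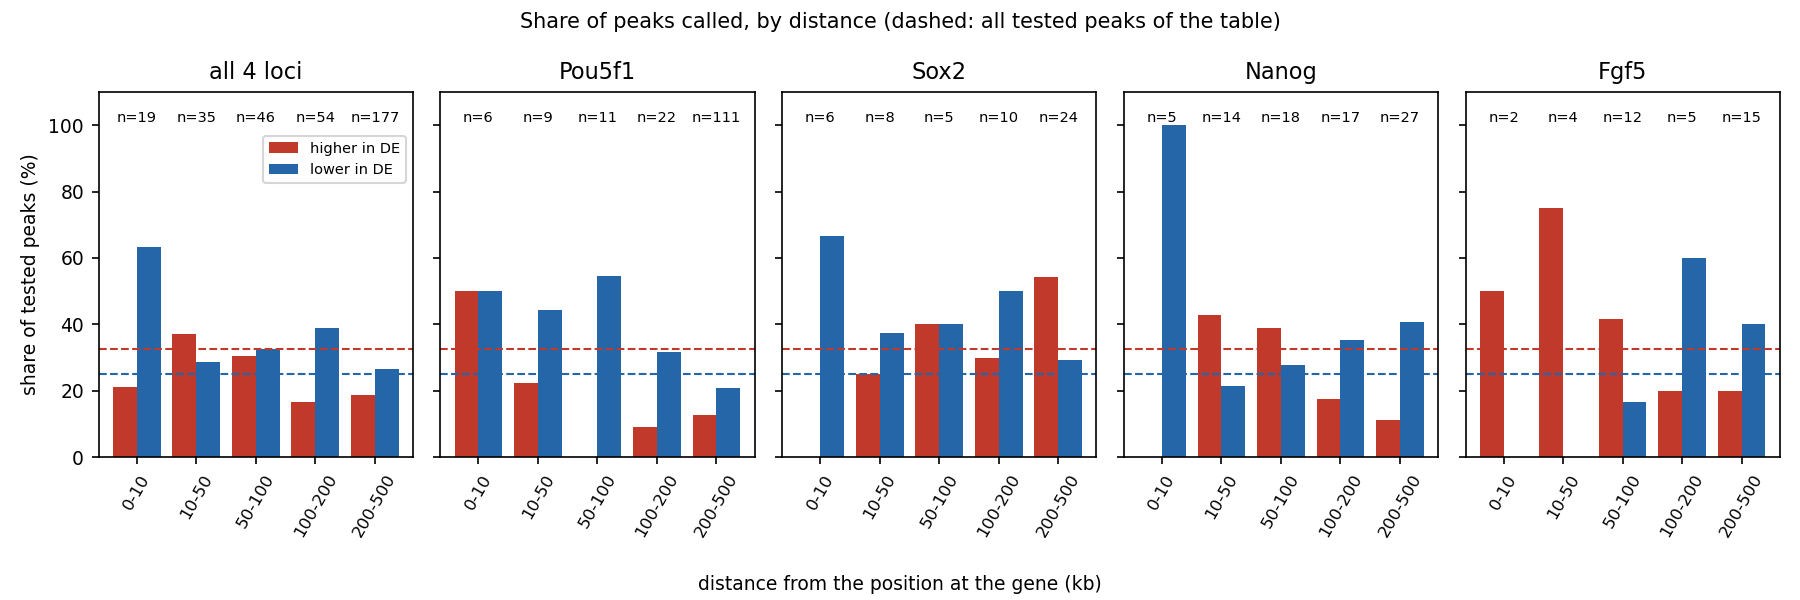
Share of tested peaks that were higher (red bars) or lower (blue bars) in DE, in percent, by distance in kb from the position at each gene, with the number tested above each band and the shares over all tested peaks as dashed lines. Within 10 kb over all 4 loci, with the position peaks included, 63.2% fell and 21.1% rose, beside 25.0% and 32.6% of all tested peaks.

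At Pou5f1, the most accessible peak near the gene lay just upstream, in the stretch of the known enhancers. This peak, chr17:35504718-35505256, ended 776 bases before the start and lies in the predicted gene Gm32362. EpiSC replicates 1, 4, 44 and 51 had 56.8, 52.1, 61.7 and 79.6 CPM (counts scaled to the size of the library), and DE replicates 2, 4, 44 and 51 had 8.64, 11.7, 11.3 and 4.32 CPM. Every EpiSC library lay above every DE library, and the log2 change was -2.75 (SE 0.22) with an adjusted p of 4.58e-09 in edgeR's test. Another upstream peak, chr17:35503921-35504077 at -1.96 kb, had 11.4, 12.3, 12.5 and 20.9 CPM in EpiSCs and 1.03, 2.14, 1.72 and 1.15 CPM in DE. It fell by 3.17 on the log2 scale (SE 0.34, with adjusted p = 1.31e-07 by edgeR after Benjamini and Hochberg), again with no overlap.

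Inside the Pou5f1 gene the direction was the opposite. The peak whose start gave the position, chr17:35506947-35507419 at 0.915 kb, had 3.04, 5.61, 2.81 and 2.01 CPM in EpiSCs and 39.9, 39.3, 44.2 and 29.1 CPM in DE, a log2 difference of 3.43. Its change was known beforehand, and its values are a description. A further peak in the gene body at 3.35 kb, chr17:35509380-35509565, rose by 0.93 on the log2 scale, from 5.14 CPM to 9.49 CPM (adjusted p = 0.0143, edgeR). That call was lost in 4 of the 8 fits with 1 library left out, namely without EpiSC replicates 1, 4 or 51 or DE replicate 2. The annotation used here gives gene bodies without exons, so exon and intron are not stated. In the next gene, Tcf19, a peak at 9.17 kb rose by 2.86 on the log2 scale, from 0.894 CPM to 6.17 CPM. Further out, the largest rise was at 257.5 kb, 57840 bases from Ier3, where EpiSC values of 0.31 to 2.04 CPM stood against 13.3 to 26.7 CPM in DE (log2 change 4.25, SE 0.36). A peak in Vwa7 at -483.8 kb rose by 3.55 (SE 0.25), and a peak 191 bases from Flot1 at 327 kb fell by 3.0 (SE 0.27).

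**Figure D3:**
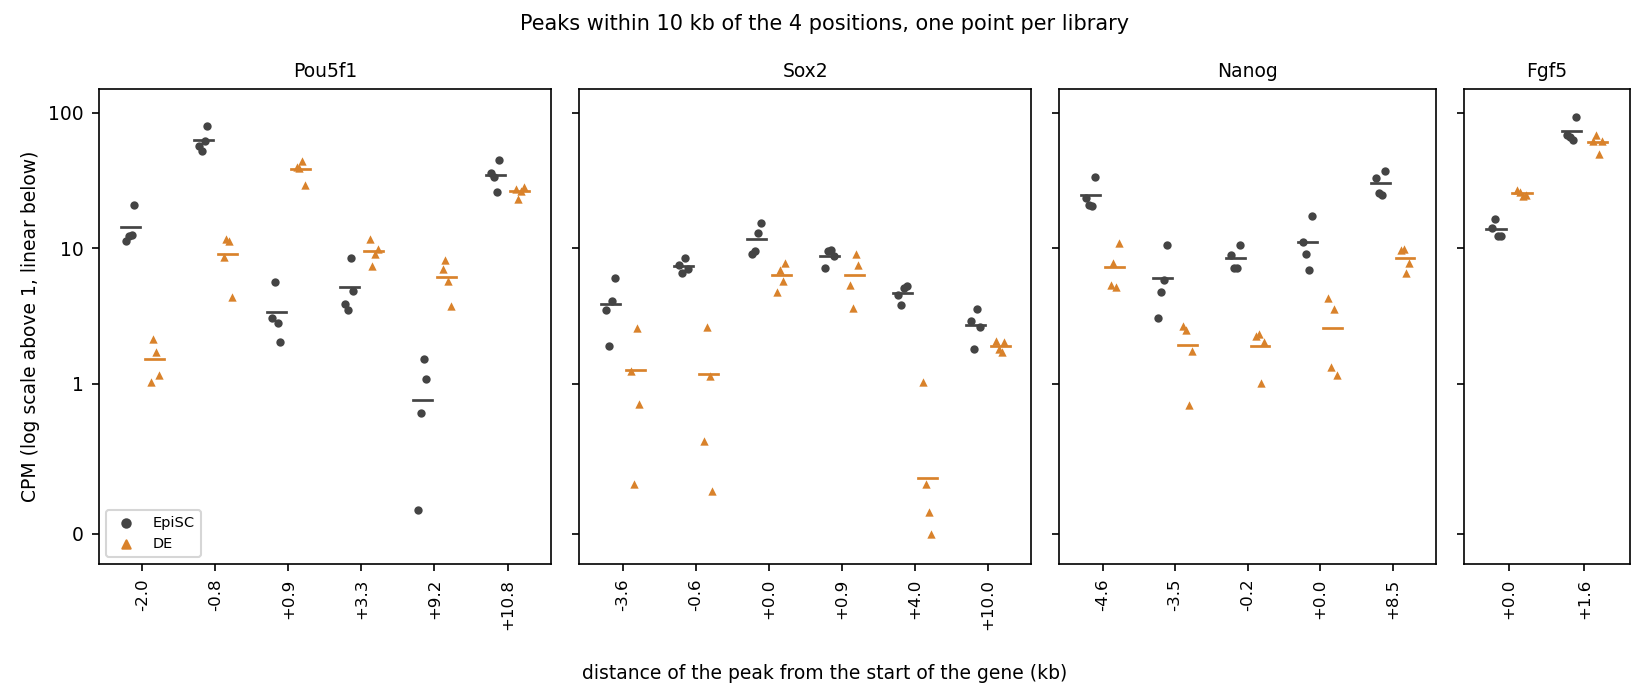
CPM in each library for the 19 tested peaks within 10 kb of the 4 positions (log scale above 1, linear below), with EpiSC libraries as dark circles, DE libraries as orange triangles and means as lines. All 5 Nanog peaks are lower in every DE library than in any EpiSC library, and the Pou5f1 peaks upstream and inside the gene go in opposite directions. Inside Pou5f1, the peak with the larger change is the position peak, given as a description. The call of the other was lost in 4 of the 8 fits with 1 library left out.

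At Sox2, the peaks near the gene were weaker. The peak over the start, chr3:34649830-34650013, had 9.12, 9.62, 13.01 and 15.3 CPM in EpiSCs and 4.73, 6.91, 5.72 and 7.78 CPM in DE. The ranges did not overlap, and the log2 change was -0.91 (SE 0.27, with adjusted p = 0.00686 by edgeR). The peak at -0.629 kb fell by 2.52 on the log2 scale (SE 0.44) (log2 change -3.34 without DE replicate 4). The peak at -3.59 kb fell by 1.54 (SE 0.54, with adjusted p = 0.0183 by edgeR), with ranges that overlapped. Without DE replicate 44 its log2 change was -2.31. Peaks over the gene body at 0.925 kb and at 9.96 kb were not called. The peak whose start gave the position, at 3.99 kb, had 4.48, 3.81, 5.10 and 5.27 CPM in EpiSCs and 1.03, 0.33, 0.14 and 0 CPM in DE, a difference of -3.55, given as a description, that stood at -4.66 without DE replicate 2.

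The window from 100 to 120 kb downstream, which takes in the Sox2 control region of embryonic stem cells, held 4 peaks. The peak chr3:34757871-34758128 at 107.9 kb had 15.8, 9.42, 10.5 and 16.1 CPM in EpiSCs and 0.41, 0, 0.43 and 0.29 CPM in DE. No DE library had more than 3 counts there, and the peak was at least 21.5-fold lower in DE when each DE library is set to 3 counts (adjusted p = 1.19e-08, edgeR). A little nearer the gene, the peak at 103.7 kb had 1.60, 2.2, 0 and 0 CPM in EpiSCs and 11.9, 8.72, 13.5 and 9.51 CPM in DE. It rose by 3.28 on the log2 scale (SE 0.54), and by 4.07 without EpiSC replicate 4. The other 2 peaks of the window, at 101.7 and 111.5 kb, were not called (edgeR adjusted p = 0.188 and 0.0506), and the second was called in 7 of the alternative fits.

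Outside that window, too, named peaks went in both directions. A peak at 97.7 kb rose by 3.58 on the log2 scale (SE 0.36), and a peak at 137.2 kb fell by 4.30 (SE 0.57), with a log2 change of -5.02 without DE replicate 4. On the other side of the gene, a peak at -175.6 kb fell by 3.45 (SE 0.40). The largest rise among the more accessible Sox2 peaks was at 386.6 kb, from 0.758 ± 0.986 CPM (SD, n = 4) in EpiSCs to 19.2 ± 2.18 CPM (SD, n = 4) in DE. Its log2 change of 4.37 (SE 0.47) was 6.10 without EpiSC replicate 4. A peak at -318.8 kb rose by 3.52, or by 4.99 without EpiSC replicate 4. Under the annotated body of Sox2ot, 8 of 15 tested peaks fell, the position peak among them, and 2 rose. Over all tested peaks 25.0% fell and 32.6% rose.

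At Nanog, every tested peak from -4.64 to 8.46 kb fell. The peak over the start, chr6:122707400-122707597, which holds the composite POU and SOX match printed above, had 11.04, 9.11, 6.89 and 17.4 CPM in EpiSCs and 4.32, 1.32, 3.58 and 1.15 CPM in DE. The groups did not overlap, and the log2 change was -2.06 (SE 0.39, with adjusted p = 0.000119 by edgeR). The peak at -0.208 kb, also in the promoter, fell by 2.17 (SE 0.36). The most accessible of the upstream peaks, chr6:122702502-122702849 at -4.64 kb, in the stretch of a known Nanog enhancer, had 23.7, 20.8, 20.4 and 33.8 CPM in EpiSCs and 5.35, 7.73, 5.15 and 10.95 CPM in DE. It fell by 1.79 (SE 0.25), and its neighbour at -3.51 kb fell by 1.65 (SE 0.45). The peak at 8.46 kb, past the end of the gene, fell by 1.83, from 30.2 CPM to 8.48 CPM.

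Farther from Nanog, strong peaks appeared in DE. In the window from -50 to -40 kb, chr6:122663649-122664080 at -43.4 kb had 2.88, 4.41, 0 and 1.86 CPM in EpiSCs and 45.9, 30.4, 33.1 and 21.3 CPM in DE. The groups stood far apart, and the log2 change was 3.66 (SE 0.42, with adjusted p = 2.77e-06 by edgeR). The adjacent peak at -44.2 kb rose by 1.32 (SE 0.33), and the peak at -47.7 kb was not called. Downstream, most rises lay in Slc2a3, which encodes the glucose transporter GLUT3. Of 17 tested peaks over its body, 8 rose and 3 fell, beside 32.6% and 25.0% of all tested peaks. The peak at 65.3 kb, chr6:122772762-122773259, had 6.40, 9.21, 5.10 and 2.79 CPM in EpiSCs and 80.7, 98.2, 86.7 and 89.4 CPM in DE, a log2 change of 3.86 (SE 0.23, with adjusted p = 2.55e-10 by edgeR).

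Within the window from 55 to 65 kb downstream of Nanog, which lies in Slc2a3 as well, the 3 peaks did not move together. The peak at 55.2 kb rose by 3.10 on the log2 scale (SE 0.41). The peak at 57.2 kb fell by 0.99 (SE 0.33), with overlapping ranges, and the peak at 57.7 kb rose by 0.66 (SE 0.20), a call that ended without DE replicate 2 (adjusted p = 0.0543, edgeR) and under scaling by total library size. The deepest fall at the locus was at -82.7 kb, 1647 bases from Dppa3, a gene of naive pluripotency and the germline. There EpiSC libraries had 8.48, 9.42, 9.18 and 12.1 CPM and DE libraries 0, 0.66, 0.29 and 0 CPM. The log2 change was -5.05 (SE 0.52), and -6.13 without DE replicate 4. A peak at -340.9 kb, 25993 bases from Phc1, which encodes a Polycomb subunit, fell by 2.26 (SE 0.22).

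At Fgf5, the peak over the start and the peak just inside the gene were open in both states. The first, chr5:98254012-98254444, gave the position of the locus and had 14.1, 16.4, 12.2 and 12.4 CPM in EpiSCs and 26.8, 25.8, 24.3 and 24.8 CPM in DE. All DE libraries were above all EpiSC libraries, with a log2 difference of 0.87, given as a description. The second, at 1.57 kb, had 73.1 ± 14.1 CPM (SD, n = 4) in EpiSCs and 60.4 ± 8.05 CPM (SD, n = 4) in DE and was not called (adjusted p = 0.0976, edgeR). It was called lower in 9 of the alternative fits, with log2 changes of down to -0.49.

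Downstream of Fgf5, toward the gene Cfap299, 4 of the other 6 peaks in the window from 0 to 60 kb were called higher and none lower. Over all tested peaks 32.6% rose and 25.0% fell. The pair at 38.9 and 39.2 kb rose most among the peaks of this window already open in EpiSCs. At chr5:98293370-98293770 the EpiSC libraries had 10.4, 11.9, 4.59 and 13.9 CPM and the DE libraries 50.02, 43.6, 48.4 and 48.4 CPM. The groups stood apart, and the log2 change was 2.18 (SE 0.21, with adjusted p = 5.47e-08 by edgeR). At chr5:98293088-98293293, the other peak of the pair, values of 5.01 to 7.20 CPM stood against 21.9 to 29.9 CPM, a change of 1.94 (SE 0.22). The peak at 57.9 kb rose by 2.76 (SE 0.31), from 2.12 CPM to 14.9 CPM.

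Other strong peaks of that window were not called or changed little. The peak at 29.6 kb had 44.6 ± 10.5 CPM (SD, n = 4) in EpiSCs and 40.3 ± 2.77 CPM (SD, n = 4) in DE and was not called (adjusted p = 0.435, edgeR). The peak at 56 kb rose by 0.38 (SE 0.13, with adjusted p = 0.0166 by edgeR), a call lost in 6 of the 8 fits with 1 library left out. The falls at this locus lay far from the gene. Peaks at -441.3 and -414.6 kb, beyond Antxr2, had log2 changes of -4.63 (SE 0.56) and -4.45 (SE 0.27), the first -5.64 without DE replicate 2. At chr5:97839324-97839607, the second of these, EpiSC values of 21.9 to 32.5 CPM stood against 1.14 to 1.32 CPM in DE. A peak in Cfap299 at 176 kb fell by 3.71 (SE 0.43). Of all tested peaks of the table, 25.0% fell and 32.6% rose. Over the body of Cfap299, 6 of 9 tested peaks fell and 1 rose. Over Prdm8, upstream of Fgf5, 2 of 8 fell and 2 rose, among the latter the peak at -85.4 kb with a log2 change of 2.14.

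**Figure D4:**
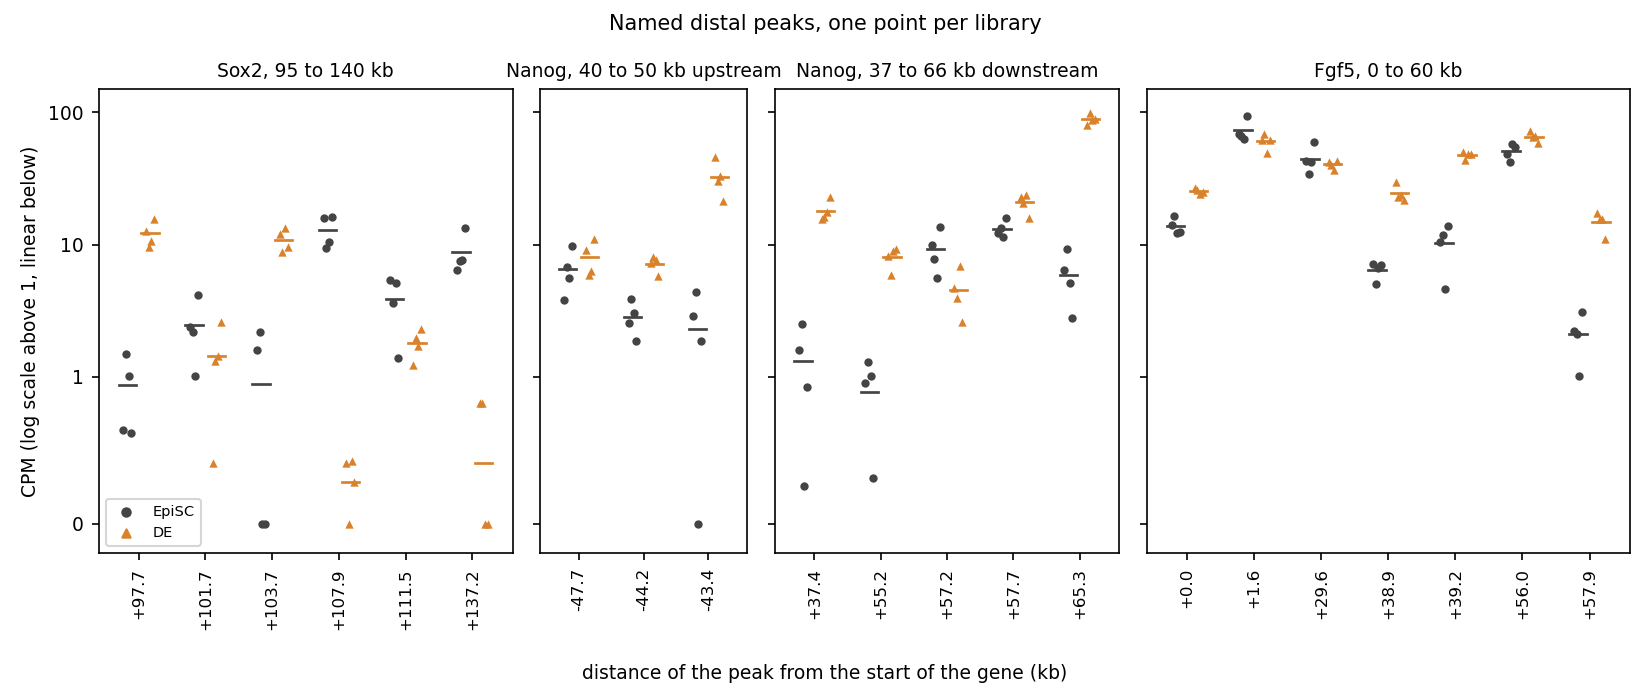
CPM in each library for named distal peaks downstream of Sox2, on both sides of Nanog and downstream of Fgf5 (log scale above 1, linear below), by distance from the start of the gene in kb, with EpiSC libraries as dark circles, DE libraries as orange triangles and means as lines. At Sox2 the peaks at 103.7 and 107.9 kb exchange places, and at Fgf5 the 38.9 and 39.2 kb peaks rise beside strong peaks that stay near their EpiSC level.

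Accessibility was also summed over all peaks of the set within 50 kb of the positions, the 3 position peaks included, as a description. The position peak had a mean of 3.37 CPM in EpiSCs and 38.2 CPM in DE at Pou5f1. The means were 4.66 and 0.375 CPM at Sox2, and 13.8 and 25.4 CPM at Fgf5. At Pou5f1 the 19 peaks summed to 204.9, 208.8, 214.8 and 271.9 CPM in EpiSCs and 154.6, 149.4, 157.3 and 128.3 CPM in DE. At Sox2 the 18 peaks summed to 60.9 to 88.5 CPM against 38.6 to 50.2 CPM. In both cases the DE libraries lay below all EpiSC libraries. The 19 peaks at Nanog summed to 135.6 to 184.2 CPM against 145.8 to 172.7 CPM, with overlap, since falls at the gene stood beside rises farther out. At Fgf5 the 7 peaks summed to 129.3 to 187.8 CPM against 187.5 to 216.5 CPM, and only the lowest DE value lay within the EpiSC range. Over 50 kb from Sox2, the other 56 peaks summed to 174.3 to 195.0 CPM in EpiSCs and to 205.2 to 279.9 CPM in DE, above all EpiSC libraries.

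Peaks that overlap an annotated promoter, here from 250 bases before to 50 bases after a start, were called at lower shares over the whole table than others. Of all tested promoter peaks 13.6% rose and 13.3% fell, against 34.8% and 26.4% of the other peaks. Around the 4 genes, 4 of 45 tested promoter peaks rose (8.89%), the Fgf5 position peak among them, and 11 fell (24.4%). Among tested peaks outside genes and promoters, 37 of 139 rose (26.6%) and 53 fell (38.1%). At Fgf5, 9 of 11 such peaks rose and 1 fell. At Pou5f1, 7 of 59 rose and 23 fell. At Sox2 the counts were 14 and 10 of 30, and at Nanog 7 and 19 of 39.

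The transcripts of the 4 genes were read in the RNA libraries. Pou5f1 RNA was at 982, 1331, 1036, 985 and 1303 CPM in EpiSC replicates 1, 2, 4, 44 and 51 and at 37.8, 6.34, 2.46 and 4.79 CPM in DE replicates 2, 4, 44 and 51. It fell by 6.47 on the log2 scale (SE 0.85, with adjusted p = 9.65e-05 by edgeR), with a log2 change of -7.93 without DE replicate 2, which stood above the other DE libraries. Sox2 RNA was at 42.0, 82.6, 35.3, 66.2 and 101.2 CPM in EpiSCs and at 2.70, 0.862, 0.196 and 0.121 CPM in DE, a change of -6.21 (SE 0.87), or -7.28 without DE replicate 2. Nanog RNA was at 72.7, 130, 40.7, 87.6 and 162 CPM in EpiSCs and at 12.4, 8.89, 3.83 and 22.3 CPM in DE, a change of -3.05 (SE 0.54). Fgf5 RNA went the other way, from 234, 234, 149, 256 and 183 CPM to 1592, 1597, 1720 and 1448 CPM, a change of 2.91 (SE 0.17, with adjusted p = 9.66e-07 by edgeR). For none of the 4 genes did the EpiSC and DE libraries overlap, and neither did they for 55.6% of all tested genes.

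The wider lists give the state of the cells. Of 26 genes of primed and general pluripotency, 17 fell and 7 rose, where 30.6% of all 14085 tested genes fell and 31.5% rose. Their median log2 change was -2.08, beside -0.01 over all tested genes. Beside Fgf5, the risers included the transcription factor Otx2 (log2 change 1.83), the ligand Nodal (1.82) and its antagonists Lefty1 (6.62) and Lefty2 (6.23), which are also known from early endoderm. Of 14 naive genes, 6 could be tested, and 0 were called by edgeR, with 0 at an unadjusted p under 0.05 and 0 called by DESeq2. All 10 markers of definitive endoderm rose, beside the 31.5% of all tested genes. Cxcr4 (log2 change 2.40) is among them. Since DE was enriched for CXCR4+ cells, its rise is not separate evidence of the cell state. Of 7 markers of visceral endoderm, 4 could be tested, and 2 rose and 0 fell, beside 31.5% and 30.6% of all tested genes. The 2 were Apoa1 (log2 change 4.45, DE mean 6.78 CPM) and Amn (5.43, DE mean 1.06 CPM). Of 7 markers of mesoderm, 2 could be tested, and 2 fell. Markers of feeder fibroblasts moved with the comparison too. Of 13, 11 fell and none rose, beside 30.6% and 31.5% of all tested genes, with a summed level of 75.9 to 2779 CPM in EpiSCs, highest in replicate 51, and of 83.2 to 291 CPM in DE. Thy1, a surface marker of fibroblasts, was at 7.97 to 109 CPM in EpiSCs and at 0 to 0.153 CPM in DE. The part of feeder cells in the changes at the 4 loci was not tested.

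Around the 4 genes, 166 annotated genes lay in the windows, 105 were matched to the RNA table and 65 could be tested. Of these, 16 rose (24.6%) and 31 fell (47.7%), beside 31.5% and 30.6% of all tested genes. Near Pou5f1, the gene Psors1c2 at 26.3 kb fell from 20.1 ± 5.08 CPM (SD, n = 5) to 0.186 ± 0.187 CPM (SD, n = 4), a log2 change of -6.97 (SE 0.64, with adjusted p = 9.78e-06 by edgeR) that stood at -7.70 without DE replicate 2. Its neighbour Cdsn, corneodesmosin, was at 0.222 to 1.84 CPM in EpiSCs and had no count in DE. Of 3 tested peaks over Cdsn, 2 fell, beside 25.0% of all tested peaks. In the same window Prrc2a fell by 4.00 (SE 0.23), the DNA damage mediator Mdc1 fell by 3.48 (SE 0.19) and the collagen receptor Ddr1 fell by 2.51 (SE 0.20), whereas Ddah2, of the dimethylarginine hydrolase family, rose by 2.95 (SE 0.29). H2-Q4 fell by 4.02 (SE 0.52), but the H2-Q genes share near-identical copies, so their counts are uncertain.

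Around Nanog, 7 of 12 tested genes fell and 3 rose. Phc1 fell by 3.15 (SE 0.20), from 606 ± 46.2 CPM (SD, n = 5) to 68.2 ± 18.0 CPM (SD, n = 4). Slc2a3 rose by 2.41 (SE 0.42), from 355 to 842 CPM in EpiSCs to 988 to 4472 CPM in DE, with no overlap, in the gene whose body held the 8 peaks that rose. Necap1, a protein of clathrin-mediated endocytosis, rose by 0.98 (SE 0.15). Dppa3 RNA had at most 1 count in any library and was not tested. The pseudogene Rps27a-ps3 rose by 6.42 (SE 0.81), but a pseudogene shares near-identical sequence with its parent gene, so this count is uncertain. Around Fgf5, Cfap299 rose by 1.80 (SE 0.36), while most tested peaks over its body fell, and Antxr2, a receptor of the cell surface, fell by 0.97 (SE 0.36). The call of Antxr2 was lost in 5 of the 9 fits with 1 library left out, without EpiSC replicates 44 or 51 or DE replicates 2, 4 or 44. Around Sox2, the gene itself was the one transcript that could be tested.

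**Figure D5:**
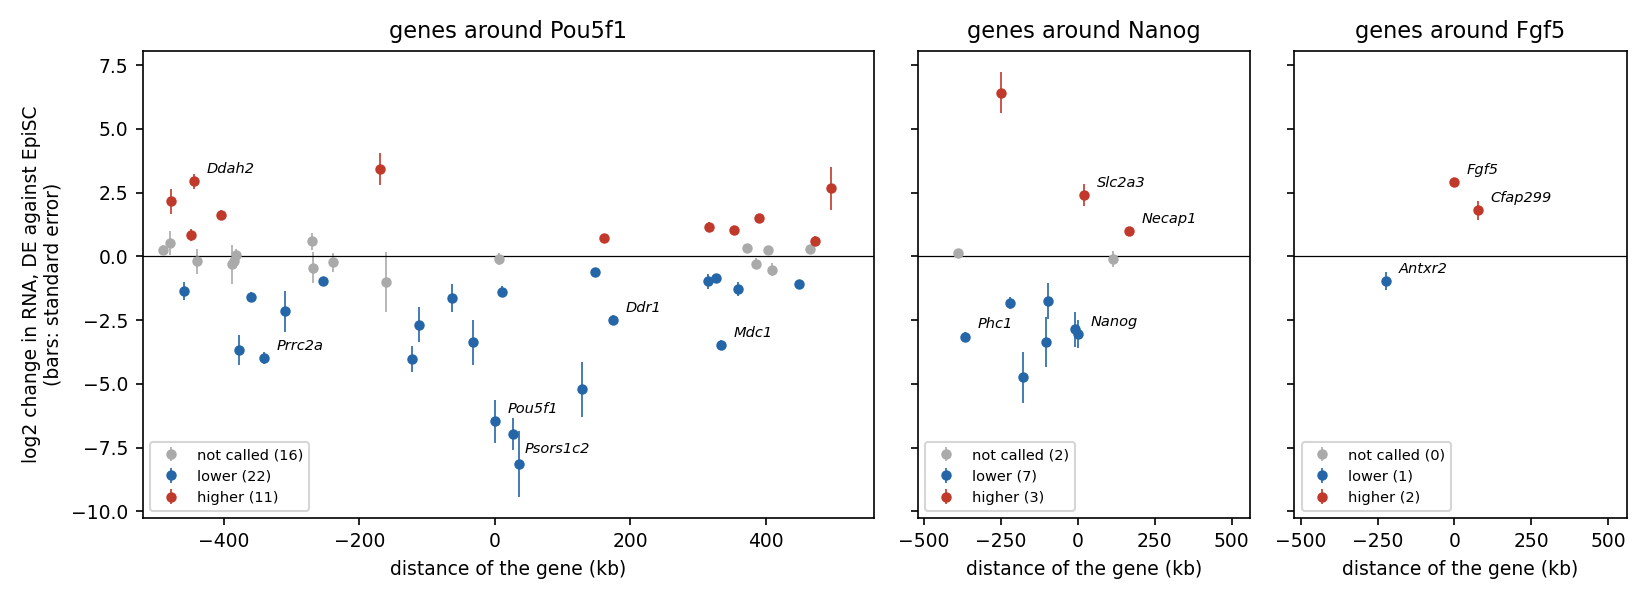
Log2 change in RNA, DE against EpiSC, with its standard error, of each tested gene against its distance in kb from the position at Pou5f1, Nanog and Fgf5, with genes that rose in red, that fell in blue and that were not called in grey. Around Pou5f1, 22 of 49 genes fell, and the deepest falls lie at Pou5f1 and in the genes just downstream.

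Promoter peaks and RNA could be set side by side for 36 tested genes of the windows. Among the 19 whose RNA fell, 6 had a promoter peak that fell, 2 had one that rose and 11 had none called. Among the 10 whose RNA was not called, 3 had a promoter peak that fell, none had one that rose and 7 had none called. Falling promoter peaks were thus not confined to genes whose RNA fell. Among the 7 whose RNA rose, none had a promoter peak that fell, 5 had none called, and Ddah2 and Fgf5 had one that rose, which for Fgf5 is the position peak given as a description. Pou5f1 was not among them, since no peak overlapped its promoter. At Nanog and Sox2 the peak over the start and the transcript both fell.

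EpiSCs of other strains were read in the same windows in another genetic background. This comparison shares the B6 EpiSC libraries with the first and uses its own peak table. Of 464 peaks in the same windows, 342 overlapped a peak of the set. Of the 464, 385 could be tested between PWK and B6 EpiSCs, and 7 were higher and 13 lower in PWK. Over all 137667 tested peaks, 1.42% were higher and 3.68% lower, 5.11% in all. Of the 50 peaks fixed by the naming rule or tested within 10 kb of a position, 39 overlapped a peak there. Those without a match, such as the Sox2 peaks at 103.7 and 386.6 kb, were all higher in DE. Of the 39, 38 could be tested between the strains, and 1 was called. This was the peak at -175.6 kb from Sox2, with 12.4 ± 2.86 CPM (SD, n = 4) in B6 and 3.78 and 5.58 CPM in the PWK libraries, a log2 change of -1.38 (SE 0.33, with adjusted p = 0.0253 by edgeR). Leaving out B6 EpiSC replicate 1 or 51, or the PWK library that has a replicate number, ended this call. The Pou5f1 upstream peak was at 66.2 CPM in B6, 62.8 and 65.3 CPM in PWK and 66.5 CPM in DBA.

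Of the 13 peaks that were lower in PWK, 8 lay around Pou5f1, where 1 was higher. That locus held 187 of the 385 tested peaks, and 3.68% of all tested peaks were lower in PWK. Of the 8, 6 lay between the starts and ends of the H2-D1 to H2-Q10 genes, chr17:35263094-35474563, among 18 tested peaks there, an interval chosen after the values were seen. Nearest to the gene was chr17:35485744-35486028 at -20 kb, with 12.4 ± 2.96 CPM (SD, n = 4) in B6, 0.540 and 0.342 CPM in PWK and 15.1 CPM in DBA. The log2 change in PWK was -4.82 there (SE 0.49, with adjusted p = 4.79e-05 by edgeR). In the first comparison the matching peak rose from B6 EpiSCs to DE by 0.67, a call lost without EpiSC replicates 1 or 51 or DE replicates 2 or 4 and under scaling by total library size. How PWK reads mapped to the B6 reference in this region was not tested. In the 1 DBA library, 12 of 386 peaks in the windows lay over a log2 ratio of 1 to the B6 mean and 36 under -1, which is 12.4%, beside 18.1% of all peaks of the table past either limit.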

How the data were processed

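The deposited peak and gene tables hold raw read counts per peak and per gene, per the file headers, with 1 peak set for all libraries of a table. Per the submitters' processing notes, ATAC-seq used fastp, Bowtie2, MACS2, featureCounts and DESeq2 on mm10, and RNA-seq used Salmon, featureCounts and DESeq2; their versions and roles are not given in the sources used here. Whether peak starts count from 0 or 1 is not stated. In the peak table of the EpiSC libraries, 17 more columns match no sample label and were left aside.

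Counts were tested with edgeR 4.0.16 in R 4.3.3 (TMM scaling, filterByExpr, robust quasi-likelihood fit, Benjamini-Hochberg over the whole table, called at an adjusted p under 0.05), after a check on simulated data. CPM refers to the scaled library size. No pair of replicates agreed within sampling noise (smallest chi-square per peak 2.87 over 12 pairs). Genes, promoters and sequences came from RefSeq GRCm38.p6.

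Peaks named are those at the position and at the start, the 3 strongest rises and 3 strongest falls that were called, had at least median accessibility and did not overlap between groups, and all in stretches of known enhancers; others were chosen after their values were seen. Members, lists and windows were chosen with earlier results of these data known. Alternatives were RLE or total library size scaling, the DESeq2 1.42.0 Wald test, other filters, a 2-fold limit, a 100 kb window, autosomes only, each library left out, and the replicate number as a block.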

Additional observations from a re-analysis of the deposited data

Results flagged for a closer look

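Of 142 sets of library values of the named peaks and transcripts, 6 had a library far from the others, and chance gives about 1 in 20. At the peak in Vwa7, -483.8 kb from Pou5f1, EpiSC replicate 4 had 4.81 CPM, and the other EpiSC libraries had 2.04 to 2.32 CPM. At the upstream peak at -1.96 kb, EpiSC replicate 51 had 20.9 CPM, and the others had 11.4 to 12.5 CPM. The Pou5f1 transcript was at 37.8 CPM in DE replicate 2 and at 2.46 to 6.34 CPM in the other DE libraries. DE replicate 2 was also the high one for Rps27a-ps3, with 278 CPM against 81.0 to 115 CPM, and for Thy1, with 0.153 CPM against 0 to 0.0166 CPM. For Psors1c2, EpiSC replicate 51 had 11.1 CPM, and the other EpiSC libraries had 21.9 to 22.8 CPM.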

How the results depend on the processing

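Of 286 recomputed counts of peaks or genes, 262 stayed within 1.5 times the main count and 24 moved further. Of 1158 recomputed changes of the named peaks and of 21 named transcripts, 1100 stayed on their side of the threshold and none turned direction. A window of 100 kb, which holds fewer peaks, left 31 higher and 37 lower over the 4 loci (Pou5f1 5 and 13, Sox2 4 and 9, Nanog 13 lower, Fgf5 2 lower). Peaks rose at Nanog and Fgf5 in that window too, and at Fgf5 more rose than fell. Those higher counts stayed within 1.5 times the main count and are not listed. Asking for at least 10 counts in every library, which tests fewer peaks, left 26 and 38 (Pou5f1 13 and 19, Sox2 2 and 5, Nanog 6 and 12, Fgf5 5 and 2), 5 lower within 10 kb, and 20 genes lower. A 2-fold limit left 13 higher at Pou5f1 and 2 higher within 10 kb.

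With 1 library left out, the counts over the 4 loci ranged from 65 to 84 higher and from 109 to 129 lower, and those of genes from 16 to 19 higher and from 24 to 32 lower. Between PWK and B6, 3 of the peaks that overlap the set were higher and 13 lower with all libraries. With 1 left out, these counts ranged from 2 to 5 higher, with 5 without B6 EpiSC replicate 44. They ranged from 8 to 13 lower, with 8 without B6 EpiSC replicate 1. Total library size scaling gave 67 higher and 132 lower over the 4 loci. The cause of these shifts was not tested.

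Replicate numbers 4, 44 and 51 occur in both ATAC-seq groups. Same-numbered ATAC-seq libraries did not deviate together (correlations 0.02, -0.00 and 0.05). In RNA-seq, numbers 2, 4, 44 and 51 had correlations of 0.10, 0.09, 0.19 and 0.24, and each library correlated best with its own number, which is a hint from the data. Since 0.09 is under the limit of 0.1 set for every pair, the numbers were not read as pairs in either assay. With the replicate number as a block, 67 peaks were higher and 87 lower, against 68 and 96 in the same libraries without it, and 14 genes were higher and 26 lower, against 16 and 28. In both of these fits calls were lost by the peaks at 57.2 and 57.7 kb from Nanog, at 56 kb from Fgf5 and at 3.35, 10.8 and -20 kb from Pou5f1, and without the block also by the one at -3.59 kb from Sox2. No paired analysis was possible for PWK because the strains share no replicate numbers. Depth of 3751526 to 9311622 counts limits weak peaks: 72 of the 403 could not be tested.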
